A study of Mus musculus with 6 samples.

Results

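Cytochrome P450 enzymes of families Cyp1 to Cyp4, flavin monooxygenases, cytosolic sulfotransferases, glutathione S-transferases and UDP-glucuronosyltransferases were followed in the conjunctival epithelium of Spdef +/+ and Spdef -/- mice. Members were taken by gene symbol (Cyp1 to Cyp4 and a letter, Gsta, Gstm, Gstp, Gstt, Gsto, Mgst, Ugt1, Ugt2, Sult1, Sult2 or Fmo). The arrays carried 97 such genes on 129 probe sets of their own, among 18096 genes in all. A gene was tested where 3 or more of the 6 deposited detection calls were Present, and its brightest such probe set stood for it, which gave 45 members among 11899 tested genes. The tested members were thus chosen by detection call and brightness, and the families were picked with results of these arrays known, so the counts below are a description. The letters Fmo also take in Fmod, the matrix proteoglycan fibromodulin, which is no enzyme and was set aside (61.9 ± 46.7 in Spdef +/+ and 18.3 ± 9.09 in Spdef -/-, adjusted p = 0.0588, limma).

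The RNA came from 8-week-old C57BL/6 mice, 3 Spdef +/+ samples and 3 Spdef -/- samples, each pooled from 1 male and 1 female mouse (1 eye per animal). The eyes were frozen with their lids, cut into 6 µm sections and stained, and the 40% of the conjunctival epithelium nearest the deepest part of the fornix, the fold between lid and eyeball, was taken with a laser microscope. The Spdef protein is a transcription factor with an ETS domain that acts in epithelia that secrete mucus. The labels do not give how the Spdef allele was made or in which cells it is lost.

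The P450 enzymes and flavin monooxygenases add an oxygen to lipophilic drugs, pollutants, steroids and fatty acids, the first phase of detoxification. In the second phase, transferases attach sulfate, glucuronic acid or glutathione, which makes the product soluble and ready for export by membrane pumps. Most of these enzymes are best known from liver, but the surface epithelia of airway, gut and eye carry their own sets, which meet airborne and tear-borne chemicals first.

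Several facts of the arrays bear on all values below. Signals are in linear dChip units, given as mean ± SD of 3 arrays, and folds are differences of mean log2 signals rather than ratios of the printed means. The number of arrays limits the precision. The Spdef +/+ arrays called 24646 to 24889 of 45101 probe sets Present, and the Spdef -/- arrays 23346 to 23425. Spdef itself was 692 ± 107 in Spdef +/+ and 2.52 ± 1.36 in Spdef -/-, with no Present call there (adjusted p = 0.000152, limma). It was 248-fold lower with its Spdef -/- signals raised to each array's lowest Present signal (1.57 to 3.75). The median signal of Absent probe sets was 13.96 to 14.25 on Spdef +/+ arrays and 14.83 to 18.23 on Spdef -/- arrays. Folds that rest on signals at or under this level, that of Spdef included, are uncertain in size. All 6 conjunctival epithelium markers (Krt4, Krt13, Krt19, Muc4, Cdh1 and Epcam) were Present on at least 3 arrays, with a summed signal of 48103 to 49716 in Spdef +/+ and 58348 to 65479 in Spdef -/-. All 6 goblet cell markers fell, their sum from between 30094 and 35733 to between 1297 and 1715, with Muc5ac, Muc5b, Spdef and Foxa3 called Absent on every Spdef -/- array. Of the stromal fibroblast markers, 4 of 6 fell (66.7%, against 24.0% of all tested genes), with sums of 26131 to 39740 and 16522 to 19403. The corneal epithelium sum was 25801 to 32673 and 21784 to 24053, with none of its 4 markers called. The meibomian and sebaceous gland sum was 4575 on Spdef +/+ replicate 2 and 1171 to 1398 on the other arrays. Fewer cells of a type and less RNA per cell cannot be told apart in these samples, and the part of any of these marker lists in the results below was not tested.

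Of the 45 tested members, 28 (62.2%) were lower and 5 (11.1%) higher in Spdef -/- at an adjusted p under 0.05 over all 11899 tested genes (limma). Over all of those genes, 24.0% were lower and 15.8% higher. Members Present in 1 genotype only passed the filter through the genotype where they were detected, so they were counted apart. Of the 38 members Present on at least 1 array of each genotype, 25 (65.8%) were lower and 3 (7.89%) higher, against 23.5% and 15.5% of the 11619 such genes. Their median log2 difference was −0.80, against −0.06 over those genes. Another 4 members were Present in Spdef +/+ only (Sult1c2, Cyp2c65, Cyp2j9 and Cyp2d22), and 3 in Spdef -/- only (Cyp4f18, Cyp4f39 and Gstp3). The 3 arrays of Spdef -/- lay wholly below those of Spdef +/+ for 28 members, against 32.7% of all tested genes, and wholly above for 6, against 22.6%. Without the detection filter, 25 of the 97 members were lower and 1 higher, against 11.1% and 8.10% of 18096 genes. The count of members higher was 1 without Spdef +/+ replicate 1, 2 without any 1 of Spdef +/+ replicate 2 or 3 or Spdef -/- replicate 2 or 3, and 4 without Spdef -/- replicate 1, while that of members lower was 25 to 28. The range of responses ran from a 30.8-fold fall for Sult1c1 to a 2.86-fold rise for Cyp4f18.

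**Figure D1:**
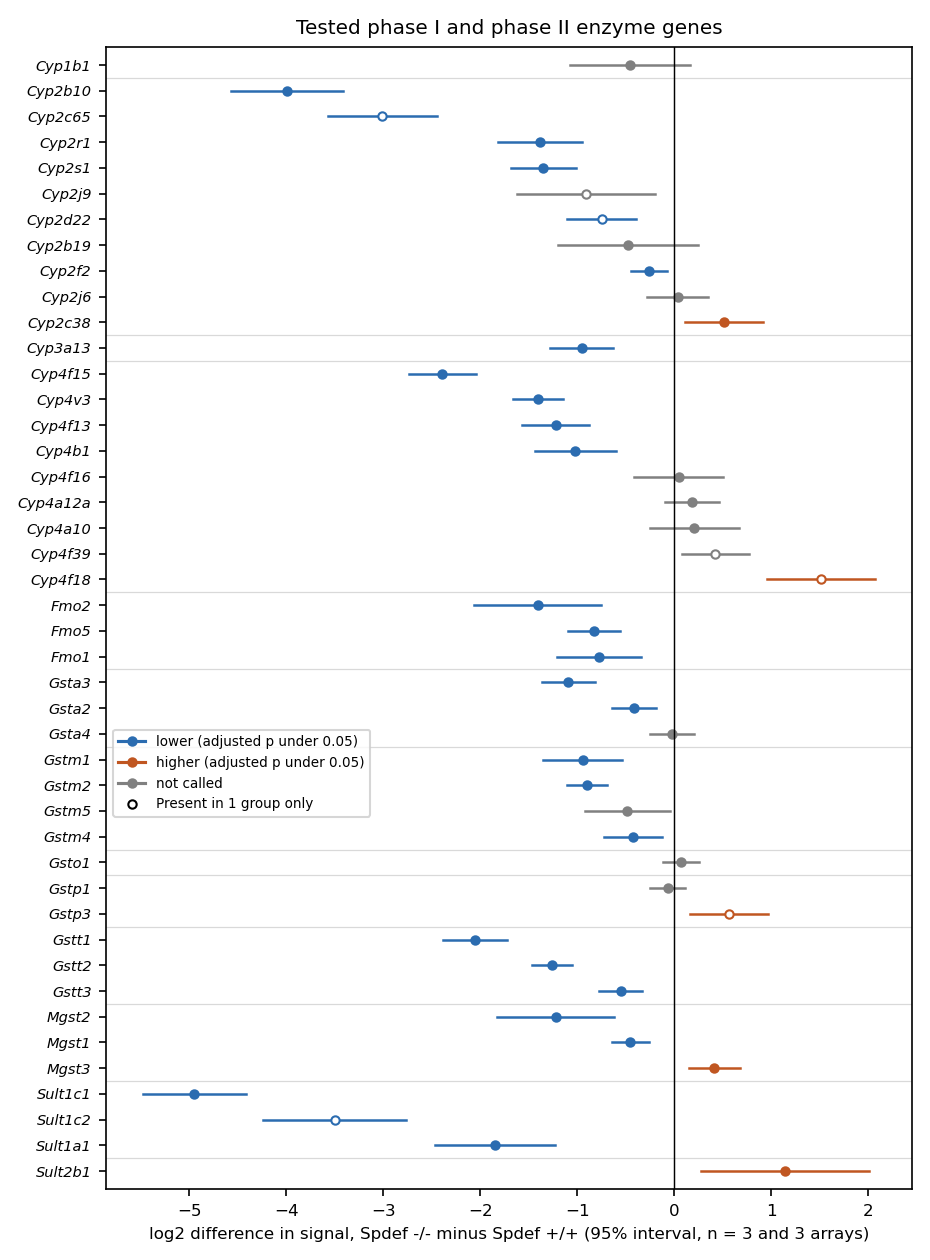
Log2 difference in signal, Spdef -/- minus Spdef +/+, with its 95% interval, for 44 tested members by family (3 arrays in each group). Filled points are Present in both genotypes and open points in 1 genotype only. Most points lie left of 0, from Sult1c1 at −4.95, and 5 members are marked as higher.

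The promoters of 5 members are printed to show the sequence in front of the neighbouring pair of sulfotransferase genes that fell furthest (Sult1c1 and Sult1c2), the P450 with the largest fall (Cyp2b10), and a pair of related Cyp4f genes called in opposite directions (Cyp4f15 lower, Cyp4f18 higher). Each runs from 250 bases before to 50 bases after the RefSeq start on GRCm38.p6, 5′ to 3′ on the gene's strand, and capitals mark matches to any of 3 motifs on either strand.
Sult1c1 promoter, chr17:53990582-53990881, reverse strand: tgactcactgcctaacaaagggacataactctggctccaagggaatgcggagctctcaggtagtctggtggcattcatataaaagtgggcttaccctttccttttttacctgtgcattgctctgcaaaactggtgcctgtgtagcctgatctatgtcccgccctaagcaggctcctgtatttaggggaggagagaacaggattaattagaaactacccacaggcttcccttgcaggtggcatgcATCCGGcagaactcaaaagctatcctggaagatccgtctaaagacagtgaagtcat
Sult1c2 promoter, chr17:53845909-53846208, reverse strand: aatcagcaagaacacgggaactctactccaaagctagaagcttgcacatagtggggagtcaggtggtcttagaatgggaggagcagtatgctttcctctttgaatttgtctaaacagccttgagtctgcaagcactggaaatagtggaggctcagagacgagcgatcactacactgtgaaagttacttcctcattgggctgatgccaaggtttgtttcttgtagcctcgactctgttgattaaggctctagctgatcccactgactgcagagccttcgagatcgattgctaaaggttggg
Cyp2b10 promoter, chr7:25897408-25897707, forward strand: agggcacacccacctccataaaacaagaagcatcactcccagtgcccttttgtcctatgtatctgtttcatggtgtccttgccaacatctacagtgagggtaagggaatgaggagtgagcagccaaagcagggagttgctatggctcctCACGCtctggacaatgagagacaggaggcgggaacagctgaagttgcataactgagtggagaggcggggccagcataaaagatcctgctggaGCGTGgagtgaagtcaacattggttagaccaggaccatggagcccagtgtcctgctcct
Cyp4f15 promoter, chr17:32685409-32685708, forward strand: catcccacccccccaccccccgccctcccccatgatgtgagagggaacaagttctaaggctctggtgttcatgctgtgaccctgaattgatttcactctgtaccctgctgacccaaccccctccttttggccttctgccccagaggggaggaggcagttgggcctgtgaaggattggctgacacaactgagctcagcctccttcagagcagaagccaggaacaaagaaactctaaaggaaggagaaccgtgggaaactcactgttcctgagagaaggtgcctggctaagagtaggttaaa
Cyp4f18 promoter, chr8:72009577-72009876, reverse strand: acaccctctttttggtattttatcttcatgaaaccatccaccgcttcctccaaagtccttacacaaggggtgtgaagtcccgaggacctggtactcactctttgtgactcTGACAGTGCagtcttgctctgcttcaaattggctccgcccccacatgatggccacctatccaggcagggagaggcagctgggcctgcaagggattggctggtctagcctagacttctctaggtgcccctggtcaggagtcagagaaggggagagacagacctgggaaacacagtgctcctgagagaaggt
The motifs searched were GCGTG, the core bound by the aryl hydrocarbon receptor, TGACNNNGC, the element bound by NRF2, and CCGGAT, a core bound by Spdef. Cyp2b10 holds GCGTG 2 times, at −101 on the reverse strand and at −9. Sult1c1 holds 1 reverse-strand match to CCGGAT, at −6, and Cyp4f18 holds 1 match to TGACNNNGC, at −140. Sult1c2 and Cyp4f15 hold none of the 3 motifs in this window. Sult1c1 and Sult1c2 share no identical run longer than 8 bases. Cyp4f15 and Cyp4f18 share 14 bases, from +15 in the first and +37 in the second. In Cyp4f18 this run reaches the end of the window, so its full length is not seen. Of the tested members, 38 had an entry in the table, with 44 promoters between them. CCGGAT stood in 2 of these 44 (4.55%), against 6.04% of all 32851 promoters of the table, GCGTG in 16 (36.4%, against 32.4%) and TGACNNNGC in 7 (15.9%, against 12.4%). Among the 29 promoters of members that were lower, GCGTG stood in 6 (20.7%), TGACNNNGC in 3 (10.3%) and CCGGAT in 1 (3.45%). Among the 6 promoters of members that were higher, GCGTG stood in 4 (66.7%), TGACNNNGC in 1 (16.7%) and CCGGAT in 0. A match is only a description of these letters.

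Of the P450 genes, 54 had a probe set of their own, 21 were tested, 11 were lower and 2 higher (52.4% and 9.52%, against 24.0% and 15.8% of all tested genes). Cyp2b10, known in mouse liver as the P450 induced through the receptor CAR, gave 606, 523 and 482 on the 3 Spdef +/+ arrays and 22.9, 39.7 and 42 on the Spdef -/- arrays. The groups were far apart, and the fall was 15.9-fold (log2 −3.99, SE 0.24, adjusted p = 0.000164). A second probe set of Cyp2b10 fell too (log2 −4.13), and the remaining one, Absent on every Spdef -/- array, had means of 222 and 24.2. Cyp2c65, a P450 known from mouse gut, gave 99.4, 84.6 and 84.8 in Spdef +/+ and 9.46, 8.92 and 16.3 in Spdef -/-, where it was Absent on every array. It was 8.04-fold lower (adjusted p = 0.000414, limma), a fold that rests on signals near the median of Absent probe sets. The CAR gene itself, Nr1i3, was called Absent on all 6 arrays (signals of 1 to 1.67), and its part in the value of Cyp2b10 was not tested.

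Other Cyp2 genes fell by smaller folds. Cyp2r1, which hydroxylates vitamin D in liver, gave 43.2, 40.8 and 40.1 in Spdef +/+ and 21.2, 13.9 and 13.5 in Spdef -/-, 2.61-fold lower (adjusted p = 0.00202, limma). In Spdef -/- it was Present on 1 array, with signals near the median of Absent probe sets (14.8 to 18.2), so this fold is uncertain. Cyp2s1, a P450 of surface epithelia that dioxin induces, gave 601, 484 and 505 in Spdef +/+ and 179, 207 and 241 in Spdef -/-. Its groups were well separated and the fall was 2.54-fold (adjusted p = 0.000966). Cyp2d22 was Present in Spdef +/+ only (48.6 ± 6.75 and 29 ± 4.42, 1.68-fold lower, adjusted p = 0.00928). A brighter probe set of Cyp2d22, called Present on 1 array, had means of 71.3 and 74.1, and standing for the gene without the detection filter it gave a log2 difference of 0.0566 (adjusted p = 0.837).

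Cyp2f2, which activates naphthalene in club cells of the mouse airway, moved little. Its signals were 18286, 18081 and 17546 in Spdef +/+ and 15479, 15567 and 14098 in Spdef -/-. The groups did not overlap, but the difference was 1.2-fold (adjusted p = 0.0387). The call was lost when any 1 of the 6 arrays was left out (adjusted p = 0.0641 to 0.127), and also when arrays were centred on their medians (adjusted p = 0.126). These signals lie near the top of the scale, where the highest signal on an array was 21627 to 22925.

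The remaining Cyp2 values were mixed. A probe set shared by Cyp2a4 and Cyp2a5, the second a coumarin-oxidising enzyme, gave 11327, 11693 and 10446 in Spdef +/+ and 7729, 9465 and 7340 in Spdef -/-. This was 1.37-fold lower (adjusted p = 0.0309 over probe sets, of which 19.8% were lower). Cyp2j9 and Cyp2j6 oxidise arachidonic acid. Cyp2j9, Present in Spdef +/+ only, was 49.8 ± 10.6 and 27.4 ± 10.4 with overlapping groups and was not called (adjusted p = 0.0503). It lies at the threshold, with an adjusted p of 0.0334 after quantile normalization and 0.0152 without Spdef -/- replicate 3. Cyp2j6 was 146 ± 14.2 and 151 ± 21.5 on its brightest probe set (adjusted p = 0.835), while a dimmer probe set was 1.51-fold lower (adjusted p = 0.0431 over probe sets), so its probe sets disagree. Cyp2b19, a P450 of mouse keratinocytes, was 65 ± 30.8 and 43.6 ± 2.04 with overlapping groups (adjusted p = 0.25).

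Cyp2c38, a neighbour of Cyp2c65 in the same gene cluster, was the 1 Cyp2 gene called higher, with 21.2, 17.5 and 22.6 in Spdef +/+ and 23.2, 32.3 and 32.5 in Spdef -/-. The lowest Spdef -/- array lay just above the highest Spdef +/+ array. The rise was 1.43-fold (adjusted p = 0.0488). It lost its call in 5 of the 6 fits that left out an array, all but that without Spdef -/- replicate 1 (range of adjusted p, 0.017 to 0.136).

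Cyp3a13, a mouse relative of the main human drug-oxidising P450, gave 544, 567 and 496 in Spdef +/+ and 275, 328 and 234 in Spdef -/-. All Spdef -/- arrays lay below, and the difference was 1.93-fold (adjusted p = 0.00286). Cyp1b1, which oxidises estrogens and polycyclic aromatic compounds, gave 297, 265 and 147 in Spdef +/+ and 156, 175 and 164 in Spdef -/-. The groups overlapped because Spdef +/+ replicate 3 was the lowest of all 6 arrays, and the difference was not called (log2 −0.46, 95% interval −1.07 to 0.16, adjusted p = 0.204). Without that array the log2 difference was −0.77 (adjusted p = 0.00633). Cyp1a1 and Cyp1a2, the classic targets of the aryl hydrocarbon receptor, were called Absent on every array.

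Cyp4 enzymes hydroxylate the far end of fatty acids and eicosanoids, and of their 9 tested genes 4 were lower and 1 higher (44.4% and 11.1%, against 24.0% and 15.8% of all tested genes). Cyp4f15 gave 665, 607 and 518 in Spdef +/+ and 133, 110 and 99.7 in Spdef -/-, a 5.24-fold fall with the groups far apart (adjusted p = 0.000162). Cyp4v3, the mouse counterpart of the human gene mutated in Bietti crystalline dystrophy of the retina and cornea, gave 241, 303 and 253 in Spdef +/+ and 96.4, 99.5 and 104 in Spdef -/-. The Spdef -/- arrays lay close together, and the fall was 2.64-fold (adjusted p = 0.000368). Cyp4f13 fell 2.33-fold (196 ± 26.7 to 84.2 ± 11.7, adjusted p = 0.00151). Cyp4b1, which makes inflammatory eicosanoids in rabbit corneal epithelium, fell 2.03-fold (326 ± 12.7 to 164 ± 37, adjusted p = 0.00523).

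Cyp4f18, which inactivates leukotrienes in mouse neutrophils, went the other way. It gave 25.9, 40 and 29.7 in Spdef +/+, all called Absent, and 119, 85.5 and 71 in Spdef -/-, all called Present. The groups were separate and the rise was 2.86-fold (adjusted p = 0.00369), a call that held in every fit that left out an array. Neutrophil markers moved with it. S100a8, S100a9 and Csf3r were the 3 tested markers of 6 on the array and all rose, with a summed signal over the list of 316 to 355 in Spdef +/+ and 3654 to 8951 in Spdef -/-. Camp and Cxcr2 were called Absent on all arrays. The part of neutrophils in the value of Cyp4f18 was not tested. Cyp4f39, needed in mouse skin for the very long chain lipids of the barrier, was also Present in Spdef -/- only, at 113 ± 14.5 and 153 ± 22.9. Its groups did not overlap, but it was not called (adjusted p = 0.0554). It too lies at the threshold, with an adjusted p of 0.0234 after quantile normalization and 0.0443 without Spdef -/- replicate 2.

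The other Cyp4 genes were not called. Cyp4a12a, which makes a vasoactive eicosanoid in mouse kidney, was 5104 ± 666 and 5771 ± 271, with overlapping groups (95% interval of the log2 difference −0.09 to 0.46, adjusted p = 0.244). Cyp4a10 was 61.9 ± 13.4 and 71.2 ± 12.3 (adjusted p = 0.414). Cyp4f16 was 227 ± 16.8 and 240 ± 64.3 (adjusted p = 0.868), although a probe set it shares with Cyp4f37 was 1.61-fold lower (adjusted p = 0.00662 over probe sets).

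Among the flavin monooxygenases, Fmo2, Fmo5 and Fmo1 were each lower. Fmo2, the flavin monooxygenase of mammalian lung, gave 2557, 2489 and 2064 in Spdef +/+ and 822, 1360 and 632 in Spdef -/-. This was a 2.65-fold fall (adjusted p = 0.00835), and 3 further probe sets of Fmo2 fell between 2.13-fold and 2.56-fold. Fmo5 fell 1.77-fold (1447 ± 148 to 815 ± 71, adjusted p = 0.00222). Fmo1 fell 1.71-fold (154 ± 29 to 89.4 ± 14.1, adjusted p = 0.0165), and its call was lost without Spdef +/+ replicate 2 or without Spdef +/+ replicate 3, with an adjusted p of up to 0.0548. Stromal fibroblast markers fell with this family (the sums are given above), and their part was not tested.

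**Figure D2:**
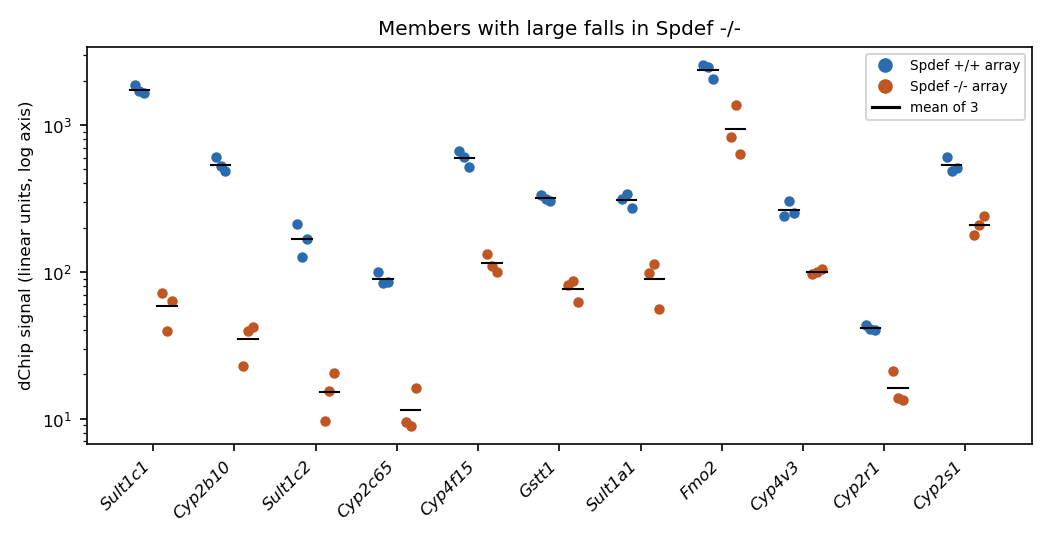
Signal on each array (linear dChip units, log axis) for 11 members with large falls, with points for Spdef +/+ and Spdef -/- arrays and a bar at the mean of 3. The groups do not overlap for any of the 11, and they come closest for Fmo2, at 2064 and 1360.

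A sulfotransferase gave the largest difference of all tested members. Sult1c1, a cytosolic sulfotransferase of phenols and hydroxylated arylamines, gave 1877, 1705 and 1642 in Spdef +/+ and 71.6, 39.3 and 63.8 in Spdef -/-. No array came near the other group, and the fall was 30.8-fold (log2 −4.95, SE 0.22, 95% interval −5.48 to −4.41, adjusted p = 8.18e-05). Sult1c2, the gene next to it, gave 210, 125 and 167 in Spdef +/+ and 9.59, 15.5 and 20.4 in Spdef -/-, where it was called Absent on every array. It was 11.3-fold lower (adjusted p = 0.000594, limma), a fold that rests on signals near the median of Absent probe sets. Sult1a1, the general phenol sulfotransferase, gave 315, 337 and 272 in Spdef +/+ and 97.8, 113 and 56.2 in Spdef -/-, a 3.6-fold fall with separate groups (adjusted p = 0.00269).

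Sult2b1, which sulfates cholesterol in keratinising epithelium, rose where the Sult1 genes fell. It gave 69.4, 126 and 131 in Spdef +/+ and 149, 240 and 340 in Spdef -/-. The lowest Spdef -/- array lay only a little above the highest Spdef +/+ array. The rise was 2.20-fold (adjusted p = 0.0457), and it lost its call in 5 of the 6 fits that left out an array, all but that without Spdef -/- replicate 1 (adjusted p = 0.0231 to 0.119). The conjunctival epithelium sum was also higher in Spdef -/- (above). Of its 6 markers, Krt4, Krt13 and Krt19 were called higher and Muc4, Cdh1 and Epcam were not called, and their part in the value of Sult2b1 was not tested.

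The cytosolic glutathione S-transferases had 13 tested genes of 18 on the array, 8 of them lower and 1 higher (61.5% and 7.69%, against 24.0% and 15.8% of all tested genes). The theta class, which acts on small halogenated compounds, fell in all 3 tested genes. Gstt1 gave 334, 311 and 302 in Spdef +/+ and 81.8, 86.7 and 62.1 in Spdef -/-, a 4.15-fold fall with tight and separate groups (adjusted p = 0.000249). Gstt2 fell 2.40-fold (892 ± 46.3 to 372 ± 23.9, adjusted p = 0.000249) and Gstt3 1.47-fold (341 ± 29.1 to 232 ± 10.1, adjusted p = 0.00499).

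The alpha class conjugates epoxides and products of lipid peroxidation, and its 3 members differed. Gsta3, known in mouse liver for its action on the aflatoxin epoxide, gave 4013, 3437 and 3839 in Spdef +/+ and 1822, 1953 and 1547 in Spdef -/-. It fell 2.13-fold with separate groups (adjusted p = 0.00104), and its dimmer probe set fell 2.64-fold. Gsta4, which conjugates the peroxidation product hydroxynonenal, gave 17028, 17383 and 17084 in Spdef +/+ and 18248, 17632 and 15016 in Spdef -/-. These groups overlapped and the difference was not called (95% interval −0.25 to 0.21 on the log2 scale, adjusted p = 0.875), although the signals lie near the top of the scale. Gsta2 fell 1.33-fold (2098 ± 50.9 to 1582 ± 167, adjusted p = 0.0161), with the call lost without Spdef +/+ replicate 1 or Spdef -/- replicate 1 (adjusted p of up to 0.0587). A probe set that Gsta2 shares with Gsta1 had overlapping groups and was not called (790 ± 50.8 and 673 ± 118, adjusted p = 0.238 over probe sets).

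In the mu class, 3 of 4 tested genes were lower (75%, against 24.0% of all tested genes). Gstm1 gave 3457, 3634 and 3323 in Spdef +/+ and 1900, 2214 and 1395 in Spdef -/-. Gstm2 gave 3366, 3238 and 3105 in Spdef +/+ and 1791, 1838 and 1604 in Spdef -/-. Both genes had separate groups, and they fell 1.92-fold (adjusted p = 0.00644) and 1.86-fold (adjusted p = 0.000783). They are close copies, so their probe sets may share targets. Gstm4 fell 1.34-fold (adjusted p = 0.0361), a call lost without Spdef +/+ replicate 1 or 2 or Spdef -/- replicate 1 or 2 (adjusted p of up to 0.111). Gstm5 overlapped and was not called (adjusted p = 0.0769), but passed without Spdef +/+ replicate 2 (adjusted p = 0.0293).

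The pi and omega classes were flat or higher. Gstp1, the pi-class enzyme of most epithelia, was 5317 ± 244 and 5082 ± 157 (95% interval of the log2 difference −0.25 to 0.12, adjusted p = 0.528). Gstp3, Present in Spdef -/- only, gave 74.6, 97.8 and 68.8 in Spdef +/+ and 104, 113 and 139 in Spdef -/-. The groups lay close without overlapping and the rise was 1.48-fold (adjusted p = 0.0381), a call lost without Spdef +/+ replicate 1 or 3 or Spdef -/- replicate 2 or 3 (adjusted p of up to 0.112). Gsto1, which reduces dehydroascorbate, gave 16223, 16898 and 16165 in Spdef +/+ and 16760, 16607 and 18372 in Spdef -/-. Its groups overlapped (95% interval −0.12 to 0.26 on the log2 scale, adjusted p = 0.513), and these signals too lie near the top of the scale.

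The membrane-bound microsomal glutathione S-transferases, of a separate protein family, split. Mgst1, which guards membranes against lipid peroxides, fell 1.37-fold (6344, 6277 and 5810 in Spdef +/+ and 4442, 4304 and 4742 in Spdef -/-, adjusted p = 0.00629). Mgst2, which can make leukotriene C in human cells, fell 2.33-fold (319 ± 40.9 to 141 ± 46.7, adjusted p = 0.0102). Mgst3 gave 1444, 1477 and 1695 in Spdef +/+ and 2157, 2175 and 1827 in Spdef -/-. The groups were separate and the rise was 1.33-fold (adjusted p = 0.0242), a call lost without Spdef +/+ replicate 1 or 2 or Spdef -/- replicate 1 or 2 (adjusted p of up to 0.0881), and when arrays were centred on their medians (adjusted p = 0.0516).

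**Figure D3:**
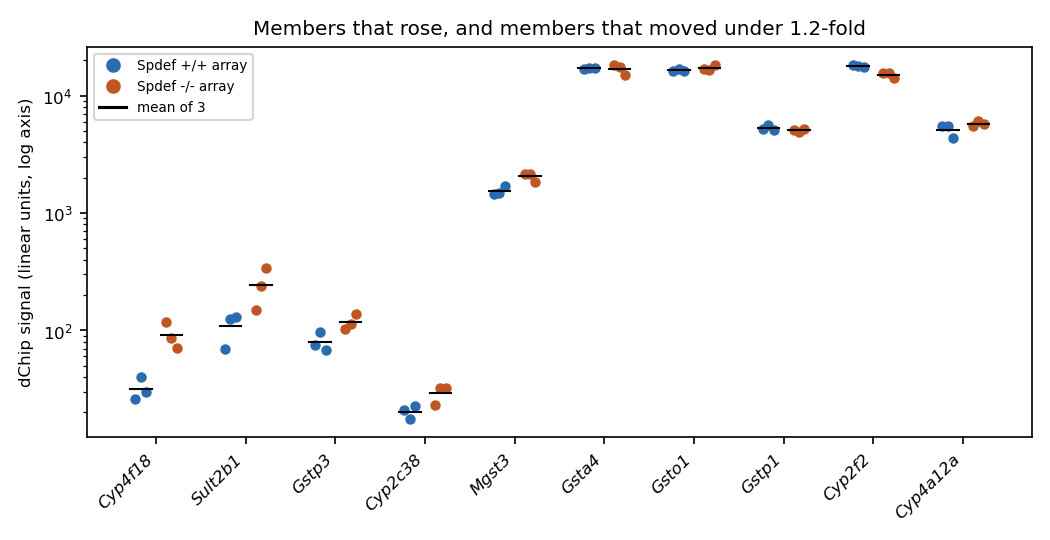
Signal on each array (linear dChip units, log axis) for the 5 members that rose (Cyp4f18, Sult2b1, Gstp3, Cyp2c38 and Mgst3) and for members that moved under 1.2-fold with bright signals, with a bar at the mean of 3. Gsta4 and Gsto1 overlap between the genotypes, while Cyp2f2 is 1.2-fold lower without overlap.

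No UDP-glucuronosyltransferase was tested as a gene. None of the 8 Ugt2 genes on the array reached 3 Present calls. The Ugt1a genes share their last exons, and 3 Present probe sets matched 8 Ugt1a genes at once. The brightest of these gave 2893, 2762 and 2622 in Spdef +/+ and 2809, 3104 and 2629 in Spdef -/-, with overlapping groups. In the others the Spdef -/- arrays lay wholly above those of Spdef +/+ (1684 to 1757 then 1856 to 2146, and 547 to 591 then 626 to 735). None of the 3 was called, with log2 differences of 0.19, 0.04 and 0.23 (adjusted p = 0.159, 0.768 and 0.117 over probe sets).

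Of the 97 members, 52 were not tested. No probe set of 40 of these was Present on any array, 9 had 1 Present call at most on any probe set and 3 had 2. Just outside the threshold lay Cyp2b9 (16.8, 9.42 and 14.6 in Spdef +/+, 22.6, 18 and 15.8 in Spdef -/-), Cyp4f41-ps (43.2, 52.7 and 41.1, then 11.3, 33.2 and 34) and Gstm7 (26.3, 26.6 and 25.1, then 45.4, 27.7 and 48.9). Just inside it, with exactly 3 Present calls, lay 8 members, of which 7 were Present in 1 genotype only, the eighth being Cyp2b19.

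Neighbouring genes of a cluster did not always move alike. Gstt3, Gstt1 and Gstt2 on chromosome 10 stand in that order with log2 differences of −0.55, −2.05 and −1.26. In the Cyp4f cluster on chromosome 17, Cyp4f39 and Cyp4f16 at 1 end were not called (0.43 and 0.05), whereas Cyp4f15 and Cyp4f13 fell, with −2.39 and −1.22. Sult1c2 and Sult1c1 are direct neighbours on the same chromosome, the first 11.3-fold lower and the second 30.8-fold lower. The order of genes is that of the RefSeq table of GRCm38.p6, and the tested members lie on 12 chromosomes.

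**Figure D4:**
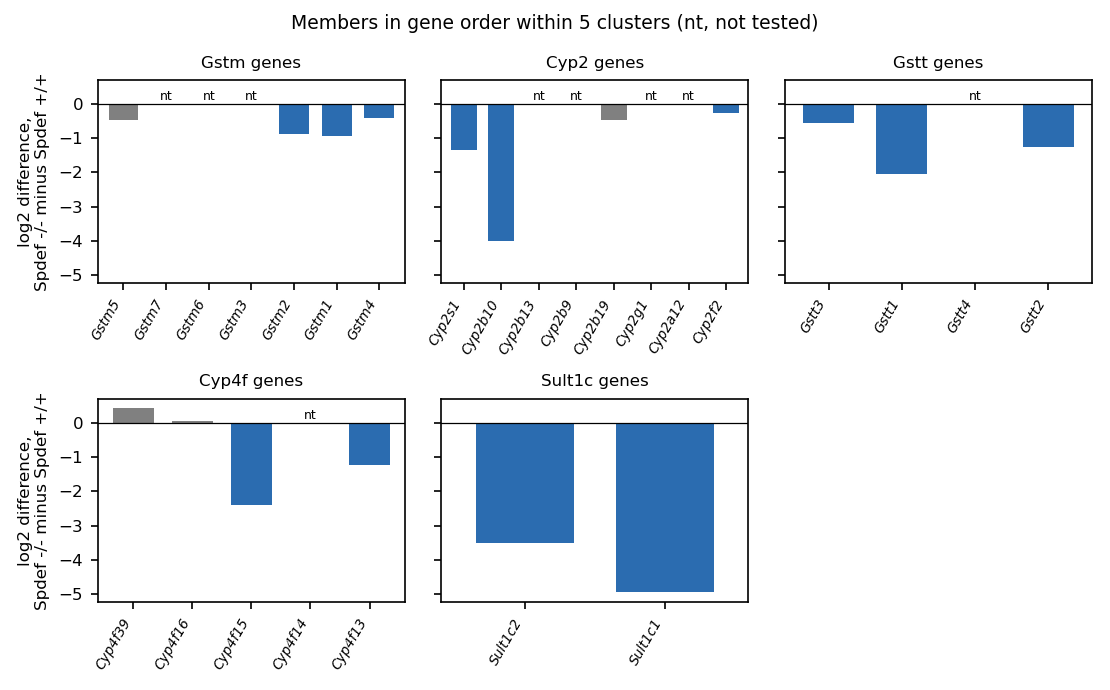
Log2 difference, Spdef -/- minus Spdef +/+, of members in gene order within 5 clusters. Blue bars are called lower, grey bars were not called, and nt marks members that were not tested. Sult1c2 was called Absent on every Spdef -/- array, so the length of its bar is uncertain. All bars are at or below 0 except Cyp4f39 and Cyp4f16, which were not called.

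Of 19 tested electron donors and heme pathway genes, 10 were lower and 0 higher, with a median log2 difference of −0.33 (24.0% of all tested genes were lower and 15.8% higher, and the median over all was −0.06). Alas1, the rate-limiting enzyme of heme synthesis, fell 2.65-fold (2932 ± 348 to 1110 ± 165, adjusted p = 0.000902). Por, the reductase that passes electrons to every microsomal P450, fell 1.54-fold (3399 ± 197 to 2218 ± 246, adjusted p = 0.0052). Blvrb and Urod, of heme breakdown and synthesis, fell 1.5-fold and 1.36-fold (adjusted p = 0.00207 and 0.00447).

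Among 13 tested regulators of the xenobiotic response, 2 were lower and 1 higher (15.4% and 7.69%), both shares under the 24.0% and 15.8% of all tested genes. Tiparp, a target and repressor of the aryl hydrocarbon receptor, was 1.43-fold higher (adjusted p = 0.00777). Ppara, the fatty acid receptor that drives Cyp4a genes in liver, was 1.64-fold lower (adjusted p = 0.00926). Rxrb, a partner of many nuclear receptors, was 1.29-fold lower (adjusted p = 0.0215), a call lost without Spdef +/+ replicate 1 or 2 or Spdef -/- replicate 1 or 2 (adjusted p of up to 0.0804). Ahr itself was 780 ± 29.2 and 775 ± 120 and Nfe2l2, which encodes NRF2, was 1156 ± 105 and 1187 ± 40.4, and neither was called (adjusted p = 0.91 and 0.743, limma). Second probe sets were not called either, with log2 differences of 0.18 for Ahr and −1.31 for Nfe2l2 (adjusted p = 0.709 and 0.0924 over probe sets). The probe sets of Nfe2l2 thus differ. Of 15 NRF2 targets outside glutathione metabolism, 4 were lower and 2 higher, shares (26.7% and 13.3%) near those of all tested genes. Aox1 (aldehyde oxidase) and Ftl1 (ferritin light chain) fell 2.97-fold and 1.85-fold (adjusted p = 0.00245 and 0.00101). A second probe set of Ftl1 was not called (log2 −0.07, adjusted p = 0.724 over probe sets). Nqo1 (a quinone reductase) fell 1.39-fold (adjusted p = 0.025) while Txnrd1 (thioredoxin reductase) rose 1.57-fold (adjusted p = 0.0212), both lost without Spdef +/+ replicate 1 or 3 (adjusted p of up to 0.0869 and 0.0706).

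Of 25 tested genes of aldehyde and carbonyl metabolism, 11 were lower and 3 higher (44% and 12%, against 24.0% and 15.8% of all tested genes). The retinaldehyde dehydrogenases Aldh1a1 and Aldh1a3 moved in opposite directions, while Aldh1a2 was not called (127 ± 28.7 and 114 ± 8.67, adjusted p = 0.521). Aldh1a1 fell 13.4-fold (8576 ± 1166 to 653 ± 186, adjusted p = 0.000152) and Aldh1a3 rose 3.53-fold (1472 ± 9.84 to 5200 ± 414, adjusted p = 9.6e-05). The carbonyl reductase Cbr1 and the aldo-keto reductase Akr1c12 fell 2.15-fold and 2.78-fold (adjusted p = 0.000372 and 0.000497). Of 12 epoxide hydrolases and esterases tested, 6 were lower and 1 higher (50% and 8.33%). Ephx1 and Ephx2, the microsomal and soluble hydrolases that open the epoxides P450s make, fell 2.0-fold and 3.49-fold (adjusted p = 0.000894 and 0.00194). The esterases Pon1 and Ces1d fell 7.23-fold and 2.90-fold (adjusted p = 0.000804 and 0.00101).

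Other P450 families had 7 tested genes, 5 lower and 2 higher (71.4% and 28.6%, against 24.0% and 15.8% of all tested genes). Cyp51, the lanosterol demethylase of cholesterol synthesis, rose 3.07-fold (711 ± 113 to 2164 ± 54.7, adjusted p = 0.000375). Cyp26b1, which clears retinoic acid, fell 2.64-fold (adjusted p = 0.00329), the prostacyclin synthase Ptgis 2.58-fold (adjusted p = 0.00509) and Cyp20a1 1.56-fold (adjusted p = 0.0035). Other conjugation and donor-making enzymes had 19 tested genes, 7 lower and 3 higher (36.8% and 15.8%). Gstk1 (the mitochondrial and peroxisomal glutathione transferase), Hnmt (histamine methyltransferase) and Sult5a1 fell 2.45-fold, 2.44-fold and 2.59-fold (adjusted p = 0.00158, 0.00178 and 0.00305), and Glyat, which joins glycine to acyl groups, rose 2.0-fold (adjusted p = 0.00332).

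Of 11 tested genes of glutathione synthesis and reduction, 4 were lower and 2 higher (36.4% and 18.2%, against 24.0% and 15.8% of all tested genes). Oplah, the cystine carrier Slc7a11 and the lipid peroxide reductase Gpx4 fell 1.82-fold, 1.79-fold and 1.5-fold (adjusted p = 0.00136, 0.0016 and 0.00473). A second probe set of Slc7a11 went the other way without being called (log2 0.25, adjusted p = 0.331 over probe sets). Gsr, which regenerates glutathione, rose 1.34-fold (adjusted p = 0.0155), a call lost without Spdef +/+ replicate 2 or Spdef -/- replicate 1 (adjusted p of up to 0.0532). Of 7 tested efflux pumps, 3 were lower and 0 higher, against 24.0% and 15.8% of all tested genes, with a median log2 difference of 0.01. Abcc1, Abcb1a and Abcc3 fell 1.32-fold, 1.41-fold and 1.51-fold (adjusted p = 0.0129, 0.0279 and 0.0368). The call of Abcc1 was lost without Spdef +/+ replicate 1 (adjusted p = 0.0539). That of Abcb1a was lost without any 1 array but Spdef -/- replicate 1 (up to 0.0871), and that of Abcc3 without Spdef +/+ replicate 1 or 2 or Spdef -/- replicate 1 or 3 (up to 0.108). A second probe set of Abcc3 was not called (log2 0.12, adjusted p = 0.613 over probe sets).

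**Figure D5:**
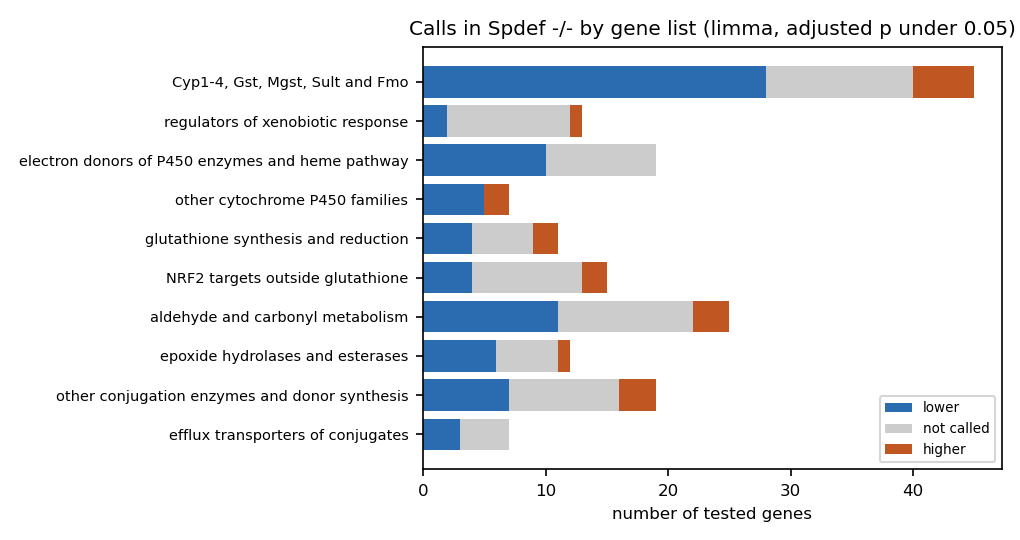
Number of tested genes called lower (blue), not called (grey) and called higher (orange) in Spdef -/- for the 45 members and 9 lists of related genes. The members show 28 lower and 5 higher, the electron donor and heme list 10 lower and 0 higher.

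The authors' deposited table of 153 probe sets, which keeps only large folds with small unadjusted p-values, holds 7 probe sets of members. The share of negative folds over all 153 was not counted. In the authors' deposited table the signed fold was −30.16 for Sult1c1, −17.64, −15.68 and −9.41 for the 3 probe sets of Cyp2b10, −8.03 for Cyp2c65, −5.25 for Cyp4f15 and −4.06 for Gstt1.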

How the data were processed

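RNA of 3 Spdef +/+ and 3 Spdef -/- samples was measured on Affymetrix arrays, 1 array per sample. The deposited signals are dChip intensity values made by the authors, on a linear scale. Neither the normalization nor the algorithm behind the deposited detection calls (Present, Marginal or Absent, of the other kind of values) is stated in the labels or headers. The authors also deposited a table of score values (group means and signed folds) with an unadjusted p-value for each listed probe set. A second deposited intensity table differed from the first in 0 values.

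Probe sets were named through RefSeq (GRCm38.p6) by gene ID (36239), by the 1 ID found of several (609) or by accession (61), while 585 hit several genes and 7543 stayed unnamed. The tests ran on log2 signals with a floor of 1. The probe set with the highest mean log2 signal among those Present on at least 3 arrays stood for its gene. The 2-sided comparison of genotypes used limma 3.58.1 under R 4.3.3, by lmFit and eBayes with genotype as the sole term. Benjamini-Hochberg adjustment covered 11899 genes, and 0.05 was the threshold. Residual SDs had a median of 0.139 on the log2 scale. Probe sets that match several genes were fitted with all probe sets singly (24533), an alternative chosen after seeing the data. Where no array of the dimmer group was Present, its signals were raised to the array's lowest Present signal. The fold of Spdef was made in this way. In Spdef -/- these lowest signals (1.57 to 3.75) lie under the median Absent signals (14.83 to 18.23), so the fold is no firm lower limit. Every signal of the members Present in 1 genotype only already lay above the lowest Present signal, so their folds did not change. In Spdef -/-, Sult1c2 (9.59 to 20.4) and Cyp2c65 (8.92 to 16.3) lay near the median Absent signals, so their folds are uncertain. The fit was tested on simulated data.

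A member that was tested is not reported here by itself, though counts include it. Members and lists were chosen with earlier results of these data known. Signals on each array were given for up to 12 called members in each direction with the largest difference, and for the 2 brightest tested members of families without one. Of each related list, up to 4 called genes with the smallest p were named. Values of Nr1i3, Ahr, Nfe2l2 and the other members were added to these. Alternatives were other filters, scalings, floors and pseudocounts, trend and robust eBayes (statmod 1.5.0), the mean of probe sets, a replicate block and leaving out each array. The labels call the samples biological replicates. Promoters came from RefSeq, and motif counts leave out chromosome 18.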

Additional observations from a re-analysis of the deposited data

How the results depend on the processing

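Against 28 members lower and 5 higher, leaving out 1 array gave 25 to 28 lower and 1 to 4 higher. Members higher became 1 with no filter on detection, 2 with a Present call required on at least 1 array of each group, 2 with the replicate block and 3 with probe sets singly (chosen after seeing the data), where 37 probe sets of members were lower. Over all genes (1878 higher, 2850 lower), leaving out 1 array gave 1277 to 1825 higher and 1850 (without Spdef +/+ replicate 1) to 2734 lower, and probe sets singly gave 3065 and 4866. Cyp2d22 reversed, to a log2 difference of 0.0566 with no filter, where a brighter probe set that is mostly Absent stood for it. The mean of probe sets left 28 and 5. Median centring and quantile normalization gave the same counts with members exchanged. Both gained Cyp2j9 (lower) and Cyp4f39 (higher), while centring lost Cyp2f2 and Mgst3 and quantile normalization lost Gstm4 and Cyp2c38. Of the 33 called members, 25 kept their call without any 1 array and 24 under every alternative that tested them. Scaling moved the all-gene median by 0.015 and 0.041 on the log2 scale. The replicate numbers did not pair the arrays (correlations of deviations −0.013, −0.09 and −0.084), and with the number as a replicate block 27 members were lower and all genes gave 1473 higher and 2200 lower. The causes were not tested. The 52 members below the detection rule, the signals near the top of the scale and the 3 arrays per genotype limit what can be seen.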
